A study of Solanum lycopersicum with 28 samples.

Results

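The far H3K4me3 peaks were 10844 stretches of tomato leaf chromatin that carried trimethylation of lysine 4 of histone H3 (H3K4me3) away from RNA polymerase II (Pol2). They were taken from the H3K4me3 peak list on the 12 chromosomes. Each was under 2000 bp long and had no deposited Pol2 peak overlapping it or within 1000 bp of either of its ends. They made up 26.2% of the 41465 H3K4me3 peaks of that length and 24.7% of all 43977 H3K4me3 peaks on the chromosomes. The other 30621 peaks under 2000 bp, called near peaks here, were the peaks they were compared with, and 25249 of these (82.5%) overlapped a Pol2 peak. The members were therefore chosen by measured values, namely the length of H3K4me3 peaks and their distance from Pol2 peaks, and all H3K4me3 and Pol2 values are given as a description with no test.

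The data came from chromatin immunoprecipitation followed by sequencing (ChIP-seq), in which an antibody recovers the DNA bound to a protein or to a modified histone. All libraries were made from leaves of wild type plants of the cultivar M82 that were 4 weeks old, received no treatment and grew under 16 h of daily light at 24 °C. Each of 26 histone modifications and Pol2 had 1 library in the labels, and the Input, which is chromatin without immunoprecipitation, had another. No mutant, treatment or second tissue entered the comparisons, and with 1 library per target a single list has no replicate error.

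H3K4me3 is laid down by SET1- and Trithorax-type methyltransferases around the transcription start of active genes, where acetylated histones and Pol2 are also found. In plants, H3K4me1 lies mostly over gene bodies, H3K36me3 follows elongating Pol2, and H3K27me3 is placed by Polycomb group proteins over genes kept silent during development. Chromatin that holds H3K4me3 and H3K27me3 together is known as bivalent, and H3K9me2, the product of KRYPTONITE-type enzymes, marks transposon-rich heterochromatin.

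The 28 deposited lists held between 30668 peaks (H3K4me1) and 385118 peaks (H3K56me2), without read totals, so that the depth behind them is unknown. Between 0.048% (H3K56me1) and 94.6% (H3K27ac) of the peaks of a list had both a q-value under 0.05 and a fold enrichment over the local background above 1.5. The share was at most 0.06% in all constitutive heterochromatin lists but H3K9me2, and 0.428% in H3K27me2. The Pol2, H3K4me1, H3K9ac, H3K36me3 and H3K9me2 lists lacked the replicate tag in their names that the other target lists carried, and the labels name the same antibody product for H4K12ac and H4K20ac. Whether the shared antibody bears on the comparisons was not tested.

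The far peaks were short and weak. Their median length was 355 bp, against 972 bp for near peaks, and 61.6% of far peaks were under 500 bp, against 28.0% of near peaks. The fold enrichment of an H3K4me3 peak is the ratio of reads at its position of highest signal to the local background. It had a median of 2.43 in far peaks and 4.78 in near peaks. The middle 50% of far peaks spanned folds of 1.92 to 3.63, and that of near peaks folds of 2.53 to 7.37. The strongest far peak reached a fold of 20.5. A q-value under 0.05 was held by 9287 far peaks (85.6%), against 94.5% of near peaks, with median −log10 q-values of 4.08 in far peaks and 61.5 in near peaks. The distance from a far peak to the nearest Pol2 peak had a median of 4917 bp and ranged between 1001 and 2117174 bp.

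Values on either side of the rule's limits lay close together. The 801 far peaks at 1001 to 1250 bp from Pol2 had a median fold of 2.12 and a median length of 305 bp, and the 998 near peaks at 751 to 1000 bp had 2.18 and 307 bp. At the length limit, the 136 far peaks of 1800 to 1999 bp had a median fold of 4.77, and the 131 peaks of 2000 to 2199 bp that were equally distant from Pol2 had 4.89. Of the 2512 H3K4me3 peaks of 2000 bp or longer, 310 (12.3%) were distant from Pol2.

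Far peaks often came in groups, as did near peaks that did not overlap Pol2. Another H3K4me3 peak lay within 1000 bp of 6627 far peaks (61.1%), against 35.6% of near peaks, and the median distance to the next H3K4me3 peak was 476 bp for far peaks and 2148 bp for near peaks. Such a neighbour was found for 30.1% of near peaks that overlapped Pol2. For near peaks at 1 to 500 bp from Pol2 the share was 59.7%, and at 501 to 1000 bp it was 65.1%. Peaks joined over gaps of up to 1000 bp formed 7382 runs with a far peak, the largest with 10 of them. In 6051 of these runs all peaks were far from Pol2, and these runs held 8920 far peaks (82.3%). Neighbouring far peaks are therefore not independent of each other.

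Far peaks were also placed differently along the chromosomes. In the outermost 10% at each end, which together hold 20% of the sequence, lay 33.1% of far peaks, against 54.1% of near peaks, and the far share of terminal peaks was the lower one on each of the 12 chromosomes. The density of far peaks was highest on chromosome 6, with 18.1 per Mb, and lowest on chromosome 9, with 11.0 per Mb. They took 31.1% of the short H3K4me3 peaks on chromosome 12, the largest share, and 19.7% on chromosome 2, the smallest.

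The other lists were read at the summit of each H3K4me3 peak, the position of its highest signal. A summit was counted for a list when it lay inside a peak of that list with a fold above 1.5. The share of a single list is first given with that of all 41465 short H3K4me3 peaks, the overall share, and was also set against the share of 150 bp bins along the chromosomes that the list covers. The 95% Wilson intervals of the shares of far peaks were at most 0.94 percentage points to either side and cover counting error only, since they take peaks as independent and contain no variation between plants.

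The targets fell into a clear order. Among the 17 euchromatin lists other than those that chose the members, 15 covered a smaller share of far than of near summits, and H3K4me1 and H3K4me2 covered a larger one. All 8 heterochromatin lists covered a larger share of far than of near summits. On the log2 scale, the ratio of the far to the near share averaged −0.68 ± 0.93 over the euchromatin lists (SD, n = 17) and 2.26 ± 0.98 over the constitutive heterochromatin lists (SD, n = 6). The difference of −2.94 had a p of 2.97e-05 in an exact two-sided permutation test over 100947 reassignments of the class names, and 5.94e-05 after Benjamini-Hochberg adjustment over 2 tests. The ratio averaged −0.68 ± 0.57 over acetylations (SD, n = 13) and 1.04 ± 1.81 over methylations (SD, n = 12), a difference of −1.72 (permutation test with 100000 reassignments, p = 0.00351, also after adjustment). These tests compare lists and not plants. The lists were read at the same peaks, so they are not independent of each other. The study places Pol2, which chose the members, in its euchromatin class. The rule and the class names were therefore not independent, and the p-values describe the order of the lists only. In the lists with a replicate tag alone, the class difference was −3.16 (14 against 5 lists, exact permutation p = 8.6e-05) and the acetylation difference −1.91 (12 against 9 lists, permutation p = 0.00172). At a q-value under 0.05 in the other lists, 1 constitutive list was left and the class difference of −2.36 had an exact permutation p of 0.111, where the smallest possible was 0.0556. The acetylation difference shrank to −0.15 in narrow lists alone (12 against 2 lists, exact permutation p = 0.791) and to −0.96 for peaks over 5000 bp from Pol2 (permutation p = 0.0513).

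**Figure D1:**
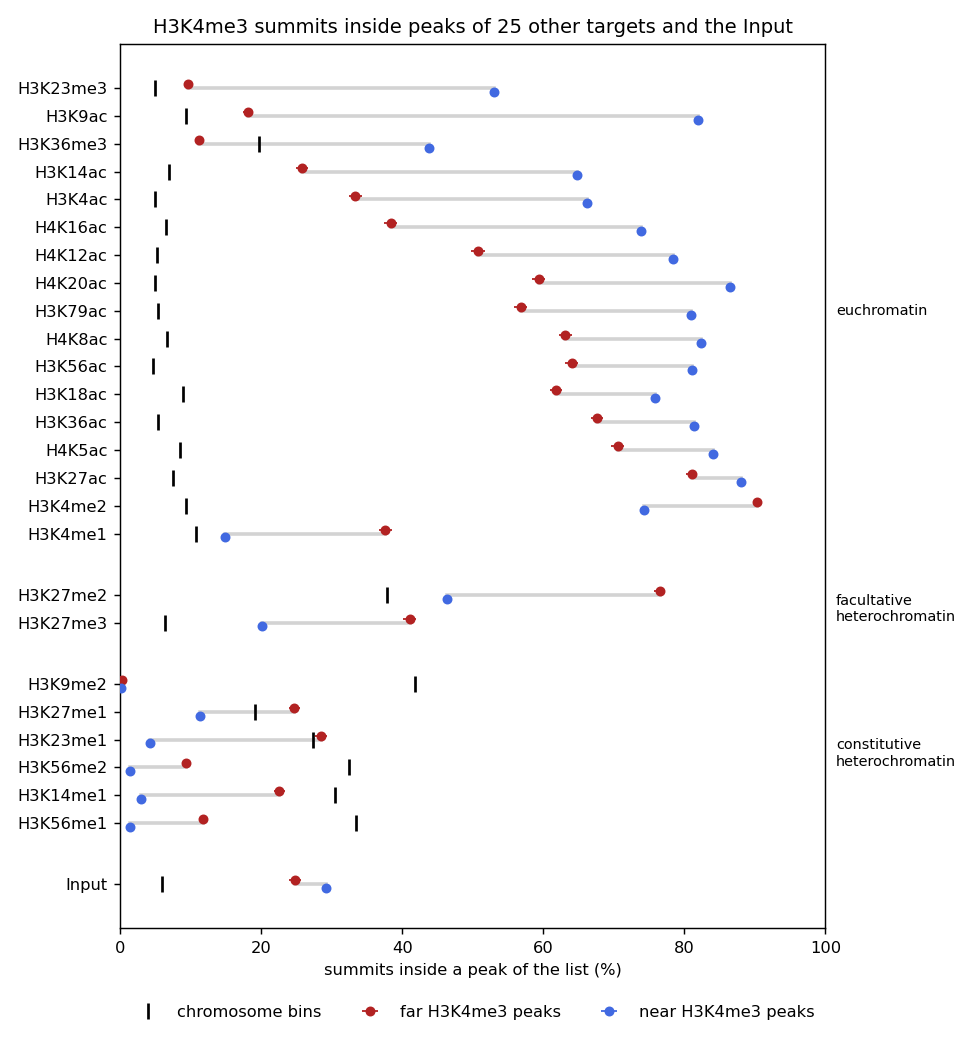
Share of H3K4me3 summits (%, x axis) that lay inside a peak of each other list (y axis), for far peaks (red) and near peaks (blue) with 95% Wilson intervals; black ticks give the share of chromosome bins in the list. The red point lies left of the blue one in 15 of the 17 euchromatin lists and right of it in H3K4me1, H3K4me2 and all 8 heterochromatin lists.

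Lower methylation of the same lysine was common at far peaks, and also at near peaks that did not overlap Pol2. H3K4me2 covered 9792 far summits (90.3%), against 74.2% of near summits, with an overall share of 78.4% and 9.24% of bins, which was the highest share of any list at far peaks. It lay between 88.6% and 92.3% on single chromosomes for far peaks and between 71.0% and 77.0% for near peaks, so that the groups did not overlap. Near peaks that overlapped Pol2 had H3K4me2 at 72.2%, those at 1 to 500 bp at 81.4% and those at 501 to 1000 bp at 87.4%. H3K4me1 covered 4073 far summits (37.6%) and 14.8% of near summits, with an overall share of 20.8% and 10.7% of bins. In near peaks its share was 10.1% with Pol2 overlap and 34.1% at 1 to 500 bp. At 501 to 1000 bp it was 42.1%, above that of all far peaks. The H3K4me1 shares of far peaks were between 30.9% and 45.6% on single chromosomes and those of near peaks between 11.7% and 17.2%. The order was reversed when an overlap of at least 1 bp with any part of the peak was counted, with a log2 ratio of −0.23 in place of 1.34.

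Histone acetylation, which loosens chromatin and is usual at active promoters, was present at most far peaks. It came in fewer forms there than at near peaks that overlapped Pol2. Each of the 13 acetylations covered a smaller share of far than of near summits, and each did so on all 12 chromosomes. Near peaks that overlapped Pol2 had a median of 13 acetylation lists. At 1 to 500 bp the median was 7, and at 501 to 1000 bp it was 5. It was 8 in all far peaks and 5 in those at 1001 to 2000 bp. At 501 to 1000 bp, H3K9ac (32.3%) and H4K20ac (61.5%) covered a larger share of near summits than of all far summits. Each other acetylation covered a smaller one, for instance H3K27ac with 73.4% and H4K12ac with 35.5%. H3K27ac, a mark of active promoters and enhancers, came first with 8789 far summits (81.0%), against 88.0% of near summits, with an overall share of 86.2% and 7.53% of bins. H4K5ac covered 70.5% of far and 84.1% of near summits (overall 80.6%), H3K36ac 67.6% of far and 81.4% of near (overall 77.8%), and H3K56ac, a core acetylation, 64.0% of far and 81.1% of near (overall 76.6%). H4K8ac covered 63.1% of far and 82.4% of near summits (overall 77.3%), and H3K18ac 61.8% of far and 75.9% of near (overall 72.2%). The 11 acetylation lists other than H3K27ac and H3K9ac each held between 4.66% and 8.91% of bins. For these 6 marks the gap was small, at log2 ratios between −0.39 and −0.12. It turned slightly positive for all but H3K56ac under at least 1 alternative, for instance to 0.02 for H3K27ac and 0.11 for H3K18ac when far meant over 5000 bp from Pol2.

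The other acetylations were set further apart. H4K20ac covered 59.4% of far and 86.5% of near summits (overall 79.4%), H3K79ac 56.8% of far and 81.0% of near (overall 74.6%), and H4K12ac 50.7% of far and 78.4% of near (overall 71.2%). H4K16ac covered 38.3% of far and 73.9% of near summits (overall 64.6%), H3K4ac 33.3% of far and 66.2% of near (overall 57.6%), and H3K14ac 25.8% of far and 64.8% of near (overall 54.6%). In these 6 lists the log2 ratio ran between −1.33 for H3K14ac and −0.51 for H3K79ac and stayed negative under every alternative tried. Over 5000 bp from Pol2 it came close to 0 for H3K79ac, at −0.09, and for H4K12ac, at −0.12, and with near peaks weighted by fold it was −0.18 for H3K79ac and −0.25 for H4K12ac. The far summit of a median peak lay in 8 acetylation lists, and the near summit in all 13. The full set of 13 was found at 693 far summits (6.39%), against 50.5% of near summits, and none of the 13 at 974 far summits (8.98%), against 4.09% of near summits.

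**Figure D2:**
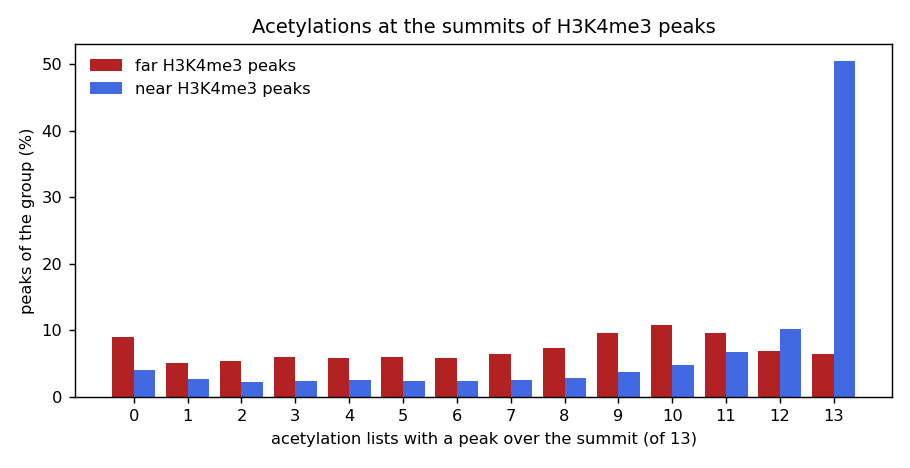
Number of the 13 acetylation lists with a peak over the summit (x axis) and percentage of far (red) and near (blue) H3K4me3 peaks with that number (y axis, bars). Near peaks pile up at 13 lists (50.5%), whereas far peaks are spread over all numbers, with their highest bar at 10 lists (10.8%).

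H3K9ac had the lowest share at far peaks of all acetylations. This mark of active promoters covered 1962 far summits (18.1%), against 81.96% of near summits, with an overall share of 65.3% and 9.34% of bins. The share fell with distance from Pol2. It was 90.0% in near peaks that overlapped Pol2, 51.4% at 1 to 500 bp and 32.3% at 501 to 1000 bp. In far peaks at 1001 to 2000 bp it was 20.8%. On single chromosomes the far shares were between 15.8% and 20.6% and the near shares between 79.8% and 83.96%. Where H3K9ac was present, its peaks had a median fold of 2.82 at far summits and 9.47 at near summits. Of the 1037 far summits with all 12 other acetylations, 344 (33.2%) had no H3K9ac peak, against 199 of 15668 near summits (1.27%). The far peaks with H3K9ac had a median H3K4me3 fold of 4.17 and a median of 12 acetylation lists, and those without it 2.28 and 6 lists. Near peaks differed in the same direction, with 5.48 and 13 lists where H3K9ac was present and 2.125 and 4 lists where it was absent. These list counts include H3K9ac itself. The H3K9ac and Pol2 lists were both among those without a replicate tag, and a shared technical property and a shared location cannot be told apart. Without the H3K9ac list, the class difference was −2.85.

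H3K36me3 and H3K23me3 were scarce at far peaks, and also at near peaks that did not overlap Pol2. H3K36me3, the mark of elongation, covered 1206 far summits (11.1%), below its share of 19.6% of bins, and 43.7% of near summits, with an overall share of 35.2%. H3K23me3, which the study groups with euchromatin, covered 1040 far summits (9.59%), against 53.0% of near summits, with an overall share of 41.7% and 4.96% of bins. Near peaks that overlapped Pol2 had H3K36me3 at 50.3% and H3K23me3 at 62.6%. Near peaks at 1 to 500 bp from Pol2 had 11.2% and 7.93%, and those at 501 to 1000 bp 16.0% and 7.89%. H3K23me3 had the lowest log2 ratio of all lists, at −2.47, followed by H3K9ac at −2.18 and H3K36me3 at −1.98, and under the alternatives these 3 lay between −3.40 and −0.98.

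Methylation of lysine 27 ran the other way. H3K27me3, the Polycomb mark, covered 4451 far summits (41.0%), against 20.1% of near summits, with an overall share of 25.6% and 6.38% of bins. Near peaks without Pol2 overlap had higher shares than all near peaks, with 33.1% at 1 to 500 bp and 34.8% at 501 to 1000 bp from Pol2, against 17.2% of near peaks that overlapped Pol2. By chromosome, the far shares were between 32.2% on chromosome 2 and 49.2% on chromosome 12, and the near shares between 17.98% and 22.5%, without overlap. H3K27me2 covered 8294 far summits (76.5%), against 46.3% of near summits, with an overall share of 54.2% and 37.8% of bins. Its share was 41.2% in near peaks that overlapped Pol2, 70.3% at 1 to 500 bp and 70.4% at 501 to 1000 bp. In far peaks at 1001 to 2000 bp it was 70.5%. The mean log2 ratio of both lists was 0.88. With peaks of a q-value under 0.05 alone, H3K27me3 still covered 35.7% of far summits, at a log2 ratio of 1.26, whereas H3K27me2 covered 2.94% of far summits, at a ratio of 0.22. The H3K27me3 peaks at far summits had a median length of 3591 bp and a median fold of 1.84, and those at near summits had 3183 bp and 1.75. The whole H3K27me3 list, without the fold limit of 1.5, had medians of 986 bp and 1.47. H3K4me2, H3K27ac and H3K27me3 were found together at 35.9% of far summits, against 15.3% of near summits. In chromatin from whole leaves, marks on the same stretch of DNA and marks in different cells cannot be told apart.

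Constitutive heterochromatin marks were more frequent at far than at near summits, but only H3K23me1 and H3K27me1 lay above their share of the chromosomes. H3K23me1 covered 3085 far summits (28.4%), against 4.21% of near summits, with an overall share of 10.6% and 27.3% of bins. H3K27me1 covered 24.7% of far and 11.3% of near summits, with an overall share of 14.8% and 19.1% of bins. H3K14me1 covered 22.6% of far and 2.94% of near summits, with an overall share of 8.07% and 30.4% of bins. H3K56me1 covered 11.7% of far and 1.37% of near summits, with an overall share of 4.07% and 33.4% of bins. H3K56me2 covered 9.27% of far and 1.37% of near summits, with an overall share of 3.43% and 32.5% of bins. In these 5 lists, near peaks at 501 to 1000 bp from Pol2 lay between all near and all far peaks. H3K27me1 covered 23.7% of them, close to the far share and above its share of bins. H3K23me1 covered 17.1%, H3K14me1 12.2%, H3K56me1 5.26% and H3K56me2 4.43% of them. At least 1 of the 6 marks lay over 5588 far summits (51.5%), against 15.9% of near summits, and all 6 together over none of either group, which allows a share of up to 0.0277% of far peaks. The holding peaks of these lists had median folds of 1.59 to 1.64 at far summits apart from H3K9me2, just above the limit of 1.5. Few peaks of the lists other than H3K9me2 passed both this limit and a q-value of 0.05.

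H3K9me2 itself was nearly absent from both groups. It covered 20 far summits (0.184%, interval 0.119% to 0.285%) and 31 near summits (0.101%, interval 0.0713% to 0.144%), with an overall share of 0.123%, although its peaks hold 41.8% of bins. The log2 ratio of 0.88 rests on these few peaks, and it was −0.17 when near peaks were weighted to the H3K4me3 folds of far peaks. The 20 far peaks had a median H3K4me3 fold of 1.96 and a median of 0 acetylation lists over their summits. H3K36me3 covered 65.0% of these 20 far peaks, against 80.6% of the 31 near peaks, and H3K56me1 55.0% of the far, against 25.8% of the near peaks. With 20 peaks an interval reaches up to 20.1 percentage points to either side.

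The surroundings of far peaks were described with 8 lists in steps of 500 bp away from the summit. H3K27me3 covered 38.6% of positions at 500 bp, 23.6% at 2000 bp and 12.6% at 5000 bp from far summits, and 18.4%, 16.5% and 13.2% from near summits; the far share was the higher one up to 3500 bp, at 15.1% against 14.3%, and the lower one at 4000 bp, at 13.7% against 13.9%. H3K4me1 covered 37.6% of far summits and 18.1% of positions at 10000 bp, whereas around near peaks it was lowest at the summit, at 14.8%, and covered 34.1% at 2000 bp. H3K9ac stayed low around far peaks, with 7.68% at 500 bp, against 56.3% around near peaks. H3K9me2 covered 6.18% of positions at 2000 bp and 24.3% at 10000 bp from far summits, and 2.55% and 10.4% from near summits.

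**Figure D3:**
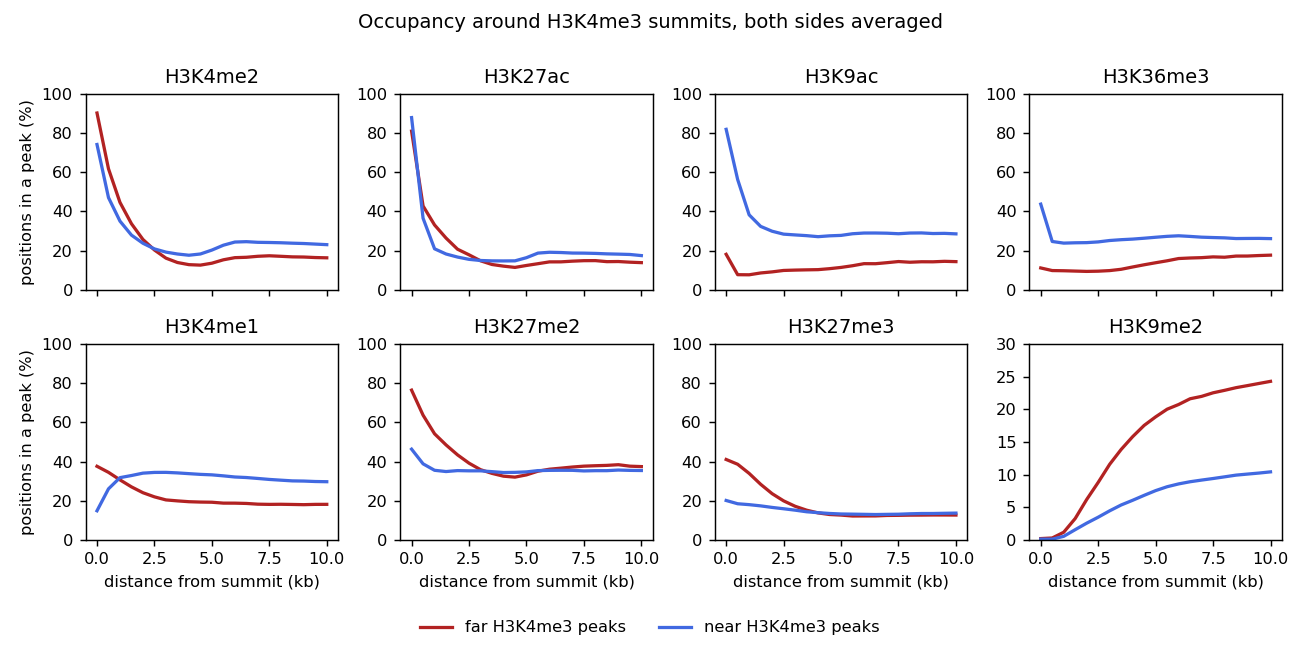
Percentage of positions inside a peak of 8 lists (y axis; H3K9me2 on a scale of its own) against the distance from the H3K4me3 summit (x axis, kb), both sides averaged, for far (red) and near (blue) peaks. H3K4me2, H3K27me2 and H3K27me3 fall away within about 5 kb of far summits, H3K9ac is low throughout, and H3K9me2 is at 24.3% at 10 kb from far summits and at 10.4% from near ones.

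The Input gave a measure of the background. Input peaks, narrow and numerous, covered 2687 far summits (24.8%), against 29.1% of near summits, with an overall share of 28.0% and 5.96% of bins. The far share was lower on 11 of 12 chromosomes, and the log2 ratio of −0.23 was 0.51 when an overlap of 50% of the length was asked for. Far peaks with an Input peak over the summit had a median fold of 2.87 and an H3K27me3 share of 49.5%, and those without one had 2.34 and 38.2%. When every H3K4me3 peak touched by an Input peak was removed, 4787 far peaks remained, of which 33.7% lay in H3K27me3, and the class difference was −2.63 (exact permutation p = 1.98e-05). Here too the p-value describes the order of the lists only, because the rule and the class names were not independent.

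Because far peaks were weaker than near peaks, the lists were also read within classes of H3K4me3 fold. H3K9ac covered 7.58% of the 3086 far peaks with a fold of up to 2, against 49.6% of the near peaks of that class, and 76.9% of the 571 far peaks with a fold over 8, against 98.2% of near peaks. H3K4me1 went the opposite way, with 63.7% of far and 49.3% of near peaks in the lowest class, and 1.40% of far and 0.884% of near peaks in the highest. H3K27me3 covered 23.8% of far and 18.8% of near peaks in the lowest class and was highest at folds over 5 and up to 8, with 54.7% of 949 far peaks, against 16.2% of near peaks. The median number of acetylation lists in the 5 classes of far peaks, with rising fold, was 3, 7, 9, 11 and 13. In the 571 strongest far peaks a share has a Wilson interval of at most 4.09 percentage points to either side.

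**Figure D4:**
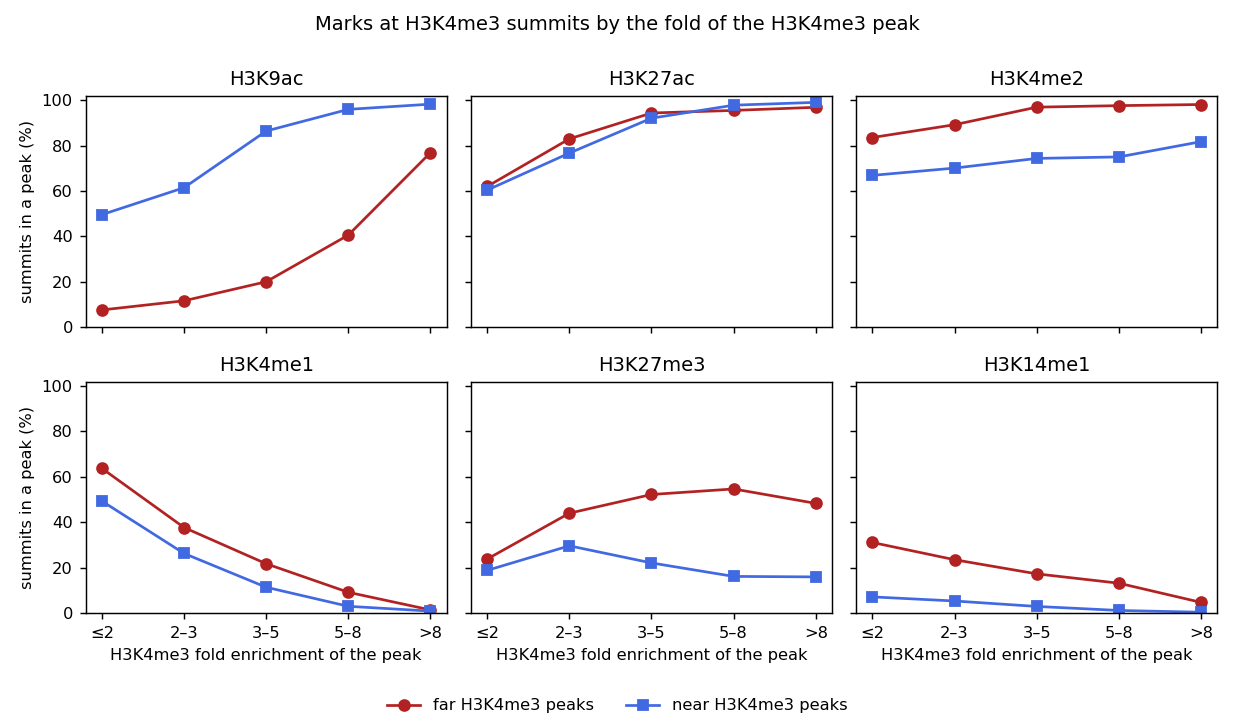
Percentage of H3K4me3 summits inside a peak of 6 lists (y axis) in 5 classes of H3K4me3 fold (x axis) for far (red) and near (blue) peaks. At equal fold, far peaks lie below near peaks for H3K9ac and above them for H3K4me2, H3K4me1, H3K27me3 and H3K14me1, whereas the H3K27ac lines stay close and cross.

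Weighting near peaks to the fold classes of far peaks left a log2 ratio of −1.91 for H3K9ac, 0.50 for H3K4me1, 0.82 for H3K27me3 and 2.24 for H3K14me1. The class difference was then −2.02 (exact permutation p = 9.91e-05). The same weighting by length gave −2.20 (exact permutation p = 0.000109). Both differences were closer to 0 than without weighting, and the weighting by fold was chosen after the data were seen. Their p-values likewise describe the order of the lists only, since weighting does not make the rule and the class names independent.

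The marks at far peaks varied with the distance from Pol2. H3K27me3 covered 30.7% of the 2522 far peaks at 1001 to 2000 bp, 26.5% of 2932 at 2001 to 5000 bp, 41.1% of 2982 at 5001 to 20000 bp, 67.9% of 1624 at 20001 to 100000 bp and 72.8% of the 784 beyond 100000 bp. The shares of far peaks up to 5000 bp thus lay below the 34.8% of the 2054 near peaks at 501 to 1000 bp, and those beyond 5000 bp above it. H3K4me1 covered 48.3%, 48.8%, 37.0%, 14.8% and 10.3% of far peaks in the same order of distance, against 42.1% of the near peaks at 501 to 1000 bp. H3K27ac covered 73.5% in the first class and 95.2% in the last, and H3K9ac 20.8% and 14.5%. The share in the outermost 10% of chromosomes was 48.5% at 1001 to 2000 bp and 3.83% beyond 100000 bp, so that distance from Pol2 and place on the chromosome moved together. H3K27me3 covered 49.97% of far summits in the remaining, central part of chromosomes, against 23.7% of near summits there, and 23.03% of far summits in the outermost part, against 16.98% of near summits there. The class difference was −3.73 in the outermost and −2.45 in the central part.

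**Figure D5:**
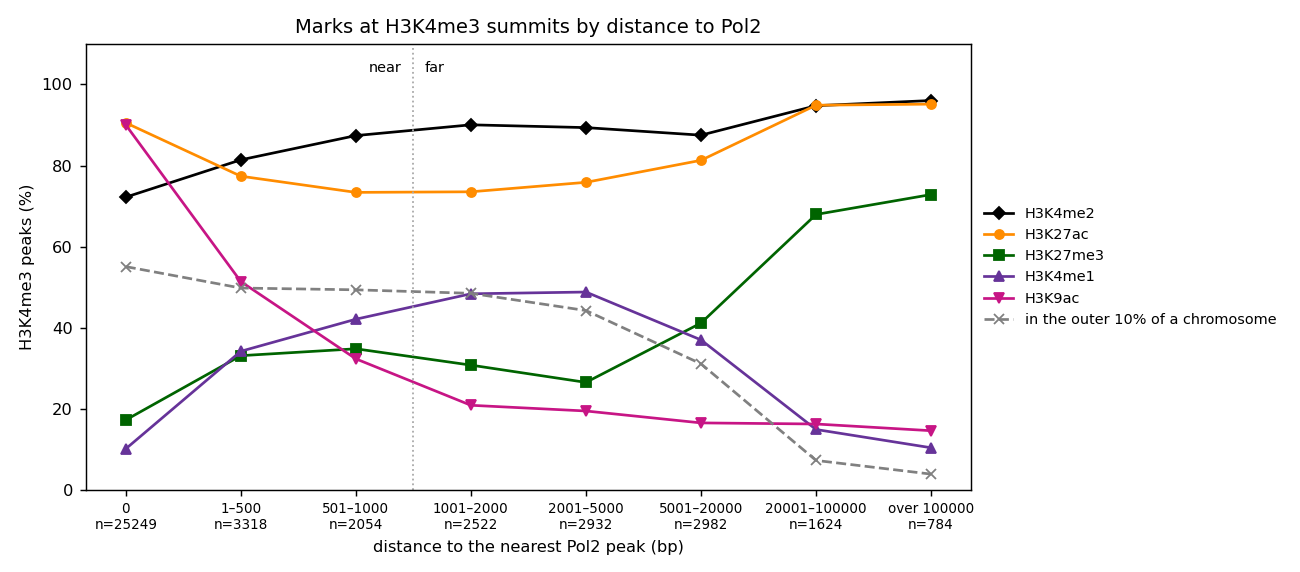
Percentage of H3K4me3 peaks (y axis) with their summit in 5 lists, and in the outer 10% of a chromosome (dashed), by distance to the nearest Pol2 peak (x axis, bp, low to high; the dotted line parts near from far peaks; n is the number of peaks). Among far peaks, H3K27me3 is at 30.7% in the first class and 72.8% in the last, while H3K4me1 is at 48.3% and 10.3%.

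H3K27me3 and H3K4me1 divided the far peaks into sets with some shared members. H3K27me3 without H3K4me1 was found at 3768 far peaks (34.7%), H3K4me1 without H3K27me3 at 3390 (31.3%), both at 683 (6.30%, or 15.3% of those with H3K27me3 and 16.8% of those with H3K4me1) and neither at 3003 (27.7%). Both marks were found at 584 near peaks (1.91%, or 9.496% of those with H3K27me3 and 12.9% of those with H3K4me1). The far peaks with H3K27me3 alone of the pair had a median distance from Pol2 of 12327 bp and a median of 10 acetylation lists. H3K27ac covered 94.1% of them, H3K36me3 0.982%, and 16.5% lay in the outermost 10% of chromosomes. The far peaks with H3K4me1 alone lay closer to Pol2, at a median of 3080 bp, had a median of 3 acetylation lists and a median fold of 1.97. H3K27ac covered 62.3% of these, H3K36me3 27.3% and H3K14me1 41.8%, and 51.003% lay in the outermost 10%. Near peaks of the same sets were close to these in the median number of acetylation lists and in H3K27ac, but not in every mark. Among peaks with H3K27me3 alone, H3K9ac covered 22.2% of far and 79.3% of near summits. Among those with H3K4me1 alone, it covered 6.46% of far and 39.6% of near summits. Near peaks with H3K27me3 alone had a median of 11 acetylation lists, with H3K27ac at 89.1%. H3K36me3 covered 11.3% of them, and 45.5% lay in the outermost 10%. Near peaks with H3K4me1 alone had a median of 4 lists and a median fold of 2.01. H3K27ac covered 60.4% of these, H3K36me3 35.6% and H3K14me1 11.96%, and 56.8% lay in the outermost 10%. Among near peaks, neither of the pair was the most common state, at 67.0%. The division was read from the same lists that it describes and carries no test.

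Peaks in groups and lone peaks had different shares of H3K4me1, H3K14me1 and H3K9ac, in the same direction among far and near peaks. The 6627 far peaks with another H3K4me3 peak within 1000 bp had H3K4me1 at 45.9%, H3K14me1 at 27.8% and H3K9ac at 12.03% of summits, with a median H3K4me3 fold of 2.23. The 4217 others had H3K4me1 at 24.4%, H3K14me1 at 14.3% and H3K9ac at 27.6%, with a median fold of 2.87. Grouped near peaks had H3K4me1 at 27.1%, H3K14me1 at 5.15% and H3K9ac at 68.8%, and lone near peaks had 8.02%, 1.72% and 89.2%. When far peaks were joined with far peaks only, and near with near, and 1 peak was kept per run, 7400 far peaks remained and the class difference was −3.01.

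Single far peaks showed the range. Positions are those of version 1 of the M82 genome, counted from 1, and genes at these positions were not analysed here. The strongest far peak, chr4:56233432-56233708, had a fold of 20.5 at 2356 bp from Pol2, and its summit lay in all 13 acetylation lists and in H3K4me2, H3K23me3 and H3K36me3. The next, chr3:23878795-23879586, had a fold of 20.2 and also all 13 acetylations, together with H3K27me2 and H3K27me3, at 16443 bp from Pol2. At chr12:61781990-61782591, with a fold of 18.9, H3K27me3 was joined by 10 acetylations without H3K9ac. A fold of 18.6 was reached at chr4:22129798-22130349, in H3K27me3 and 12 acetylation lists, at 51541 bp from Pol2, and of 18.4 at chr12:10842520-10843639, in 13 acetylation lists and H3K27me1 and without H3K27me3. An Input peak covered the summits of the last 4 of these 5.

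The longest far peaks were weaker. At chr7:12076925-12078921, 1997 bp long and with a fold of 4.46, the summit lay in 10 acetylation lists, in H3K27me3 and in 3 constitutive marks. The next in length were chr4:60118761-60120752, with a fold of 6.51 and 11 acetylations, and chr7:62657232-62659223, with a fold of 6.26 and 3 acetylations. The far peaks most distant from Pol2 were 3 neighbours within chr6:13775242-13778845, at 2113695 to 2117174 bp, with folds of 1.98 to 4.55, H3K4me2 and H3K27me2 at each summit, 6 to 9 acetylations and no H3K9ac. Among the 20 far peaks in H3K9me2, the strongest were chr3:54222041-54222919 with a fold of 8.39, chr5:60796121-60796891 with 7.01 and chr5:6683868-6684248 with 3.50. Their summits lay in 1, 2 and 1 acetylation lists, and in H3K9ac at the first and the second.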

How the data were processed

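Per the labels, each of 27 targets and the Input had 1 library, built on 10 ng of leaf DNA, with single reads of 75 bp. The methods of the study and the submitters' processing notes name Trimmomatic 0.38, alignment with Bowtie2 2.3.5 to version 1 of the M82 genome, removal of duplicates and of mapping qualities under 30, which lowers coverage of repeats, and MACS2 2.2.7.1 at a p-value of 0.05. The methods name 2 biological replicates, and the sources used here do not say whether a list pools them or was called against the Input. The deposited fold enrichment is a ratio of pileup to local background computed by the authors' caller, and the deposited −log10 p-value and −log10 q-value come from its Poisson model. In the 11 broad lists these are averages over a peak, and in the 17 narrow lists values at the summit.

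H3K4me3 peaks were divided by the rule given above, and their summits were intersected with peaks of fold above 1.5 in 25 target lists and the Input. Ratios of shares are log2 values with 0.5 added to counts and 1 to totals, intervals are 95% Wilson intervals, and a count of 0 was given a limit of 3 counts. Library depth is unknown. Classes of targets are those of the study, and their names were reassigned over lists in two-sided permutation tests. Python 3.11.15, numpy 2.4.6 and pandas 2.3.3 were used, and the functions were tested on simulated data. Named regions were the 5 far peaks of highest fold, the 3 longest, the 3 farthest from Pol2, and the 3 of highest fold in H3K27me3, in H3K9me2 and in at least 12 acetylation lists.

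The rule, lists and tests were chosen with earlier results of these data known. Alternatives changed the distance, length, fold, q-value and overlap limits, the Input, the zone, the lists compared and the weighting of near peaks by length. Weighting by fold, keeping 1 peak per run and leaving out H3K9ac were added after seeing these results. Peaks on organelle and unplaced sequences entered no comparison. No genome or annotation of this build was used here, so no sequence is shown and the leaf label was not checked against marker genes.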

Additional observations from a re-analysis of the deposited data

How the results depend on the processing

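The number of far peaks was 5390 with a distance over 5000 bp from Pol2 and 4787 without H3K4me3 peaks touched by an Input peak, and between 7400 and 16216 under the other alternatives. The difference between euchromatin and constitutive lists lay between −3.73 in the terminal zone and −2.02 with near peaks weighted by fold. It no longer passed the threshold with other lists held to a q-value of 0.05 (−2.36), since 1 constitutive list had enough summits. The difference between acetylations and methylations no longer passed over 5000 bp from Pol2 (−0.96), at that q-value (−0.73, 13 against 7 lists) and in narrow lists (−0.15). Of 462 recomputed log2 ratios, 16 changed sign, and 18 of 26 lists had no change of sign under the 17 or 18 alternatives that gave a value, where 5 constitutive lists lacked one at a q-value of 0.05 and the Input lacked one without Input peaks. Over 5000 bp from Pol2 the ratio was 0.113 for H3K18ac, 0.0238 for H3K27ac, 0.0262 for H3K36ac, 0.056 for H4K5ac and 0.0303 for H4K8ac. With near peaks weighted by length it was 0.063 for H3K27ac, 0.0172 for H3K36ac and −0.27 for H3K9me2. Weighted by fold, it was 0.0538 for H3K27ac, 0.0255 for H3K36ac, 0.000978 for H4K5ac, −0.17 for H3K9me2 and 0.0313 for the Input. With an overlap of 50% of the length it was 0.00424 for H3K18ac and 0.51 for the Input, and with 1 bp it was −0.23 for H3K4me1. The cause of these changes was not tested.

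No paired analysis was possible because each target had only replicate 1 in the labels. Without read totals, a mark that is missing at a far peak cannot be told apart from one below the detection of a shallow library. Leaving out a replicate was not possible for the same reason.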

Other observations

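Outside the chromosomes, 362 H3K4me3 peaks were deposited. With a fold above 1.5, H3K4me3 peaks covered 32.9% of the chloroplast sequence, 15.4% of the mitochondrial sequence and 0.00552% of the unplaced sequences, and Input peaks covered 35.5%, 23.9% and 1.04% of them. H3K4me3 coverage was below that of the Input in each. Pol2 had no peak on either organelle, so that all organelle H3K4me3 peaks would have met the distance limit.

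Of the far peaks, 8 (0.0738%) had their summit in none of the 25 other target lists, against 30 near peaks (0.098%). A summit in at least 4 constitutive heterochromatin lists was found at 461 far peaks (4.25%), against 83 near peaks (0.271%).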
